A study of Mus musculus with 6 samples.

Results

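The genes described here are 9 genes of fatty acid uptake and binding, followed across the cell types of the mouse sciatic nerve 1 day after birth (P1) and in the young adult, at day 60 (P60). They were chosen by name for their known roles, not by their values, and all 9 were found among the 41605 genes of the 6 deposited libraries. The set holds 4 fatty acid binding proteins (Fabp4, Fabp5, Fabp7 and Fabp3), the membrane proteins Cd36 and Slc27a1, and the lipoprotein lipase system of Lpl, Gpihbp1 and Angptl4.

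Fatty acids reach tissues either bound to albumin or inside triglyceride-rich lipoproteins. Lipoprotein lipase, made by parenchymal, stromal and immune cells, is carried to the capillary lumen by GPIHBP1 on endothelial cells and releases fatty acids there, and ANGPTL4 inhibits it. CD36 and the fatty acid transport proteins then help the acids across membranes, and fatty acid binding proteins carry them in the cytosol. Peripheral nerve has endoneurial vessels with a blood-nerve barrier, vessels outside the endoneurium without such a barrier, and Schwann cells that build lipid-rich myelin.

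All mice were on a C57bl/6J background with the alleles P0Cre-/+, ReYFP Tg/+ and βAct-DsRed Tg/+, at both ages, so no group lacks the transgenes. The Cre allele turns on a yellow reporter in Schwann cells, and DsRed is carried by all cells and was the basis of the sort. Each age had 3 libraries, each an independent suspension that pooled mice of both sexes, run on the 10x Chromium 3′ v2 system, which counts captured RNA molecules as unique molecular identifiers (UMIs). At P1 part of the cells positive for both reporters were removed in the sort, so the number of Schwann cells at P1 was set by the sort, and the mice were not perfused. The 6 libraries held 3435 to 4586 cells with a median of 3627 to 6840 UMIs per cell, and 13 to 32 cell barcodes were shared between any pair of libraries. P60 replicate 3 stood apart: its median was 3627 UMIs, 16.2% of its cells had more than 10% mitochondrial counts, and its log2 values correlated with the other P60 libraries at r = 0.988 across genes, against 0.998 between those. No date or batch is given in the labels, so age and any batch of libraries cannot be told apart.

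Cells were clustered anew with the 9 genes left out of the variable genes, and clusters were named from marker lists that hold none of them. Of 24337 cells, 21715 fell into 5 classes, each class being cells that are like the named type by these markers: endothelial-like (621 at P1, 1678 at P60), mural-like (573 and 717), Schwann-like (3129 and 361), fibroblast-like (4946 and 7829) and macrophage-like cells (789 and 1072). The names are used below without the suffix. UMIs were summed per library and class, and a level is given in CPM, which scales the UMIs of a gene to all UMIs of that class in that library. Changes from P1 to P60 were tested on the sums with edgeR's quasi-likelihood test, with p-values adjusted over all genes tested in the class and called below 0.05. Levels between classes and subsets are a description without a test. Differences between the 3 libraries of an age are the only measure of error.

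The 4 binding proteins are related in sequence, so a stretch of their coding sequences is shown to say how far the counts can be told apart. The stretch covers 90 bases of each transcript in the GENCODE M21 annotation, starting 31 bases from the first coding base (37 in Fabp5), written 5′ to 3′. Capitals mark the 45 bases that all 4 genes share.
Fabp4: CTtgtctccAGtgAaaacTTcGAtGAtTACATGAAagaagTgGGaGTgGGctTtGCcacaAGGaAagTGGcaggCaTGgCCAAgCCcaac
Fabp3: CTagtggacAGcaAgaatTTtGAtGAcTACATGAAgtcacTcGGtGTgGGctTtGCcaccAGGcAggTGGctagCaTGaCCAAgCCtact
Fabp7: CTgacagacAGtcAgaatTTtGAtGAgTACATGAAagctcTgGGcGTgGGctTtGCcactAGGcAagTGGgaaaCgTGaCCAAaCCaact
Fabp5: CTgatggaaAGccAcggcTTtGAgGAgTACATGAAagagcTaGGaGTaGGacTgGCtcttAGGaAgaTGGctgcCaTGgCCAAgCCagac
Over this stretch Fabp3 had 72.2%, Fabp7 71.1% and Fabp5 65.6% of its bases in common with Fabp4. No run of 31 bases of the main Fabp4, Fabp7, Cd36 or Gpihbp1 transcript was found in a transcript of another gene, so their reads can be assigned. In Fabp5, 33.1% of such runs also lay in processed pseudogenes such as Gm6166, and in Fabp3 37.3% lay in other genes such as Fabp3-ps1. Since none of those other genes was in the count tables, reads of Fabp5 and Fabp3 were not split with them by the table, and whether reads were lost to them is not known. Fabp3 also overlaps Zcchc17 and Gm10570 on the opposite strand, which cannot be told apart from it if the counting ignored the strand.

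The number of members that passed the test is first set against all genes. In endothelial cells 4 of 7 tested members changed with age, 1 higher and 3 lower at P60, where 39.1% of all tested genes changed (20.3% higher and 18.8% lower). In mural cells 4 of 5 changed, 2 in each direction (34.8% of all genes, 18.5% higher and 16.3% lower), and in macrophages 3 of 6 changed, 2 higher and 1 lower (39.4%, with 21.2% higher and 18.2% lower). All 8 tested members changed in Schwann cells (38.5% of all genes), 7 of them higher at P60 (19.9% of all genes) and 1 lower (18.6%). That count depended on the setting, in a class with 361 cells at P60. It was 2 with cells that held 5 UMIs of other classes' markers left out, where only Fabp4, Fabp5 and Slc27a1 were tested. It was 2 with 50 cells per library, and 5 without P60 replicate 3 or without any of the P1 libraries in turn. Fabp7, Lpl and Gpihbp1 had too few UMIs to be tested in some fits with a library left out. In fibroblasts 7 of 9 changed, 5 higher and 2 lower, in a class in which 59.9% of all genes changed (31.1% higher and 28.8% lower). The median log2 change of the tested members was -0.09 in endothelial cells, -0.42 in mural cells, 1.70 in Schwann cells, 0.52 in fibroblasts and 0.10 in macrophages, beside medians of all tested genes of 0.01, 0.02, 0.01, 0.04 and 0.03. Members left untested had too few UMIs in that class.

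**Figure D1:**
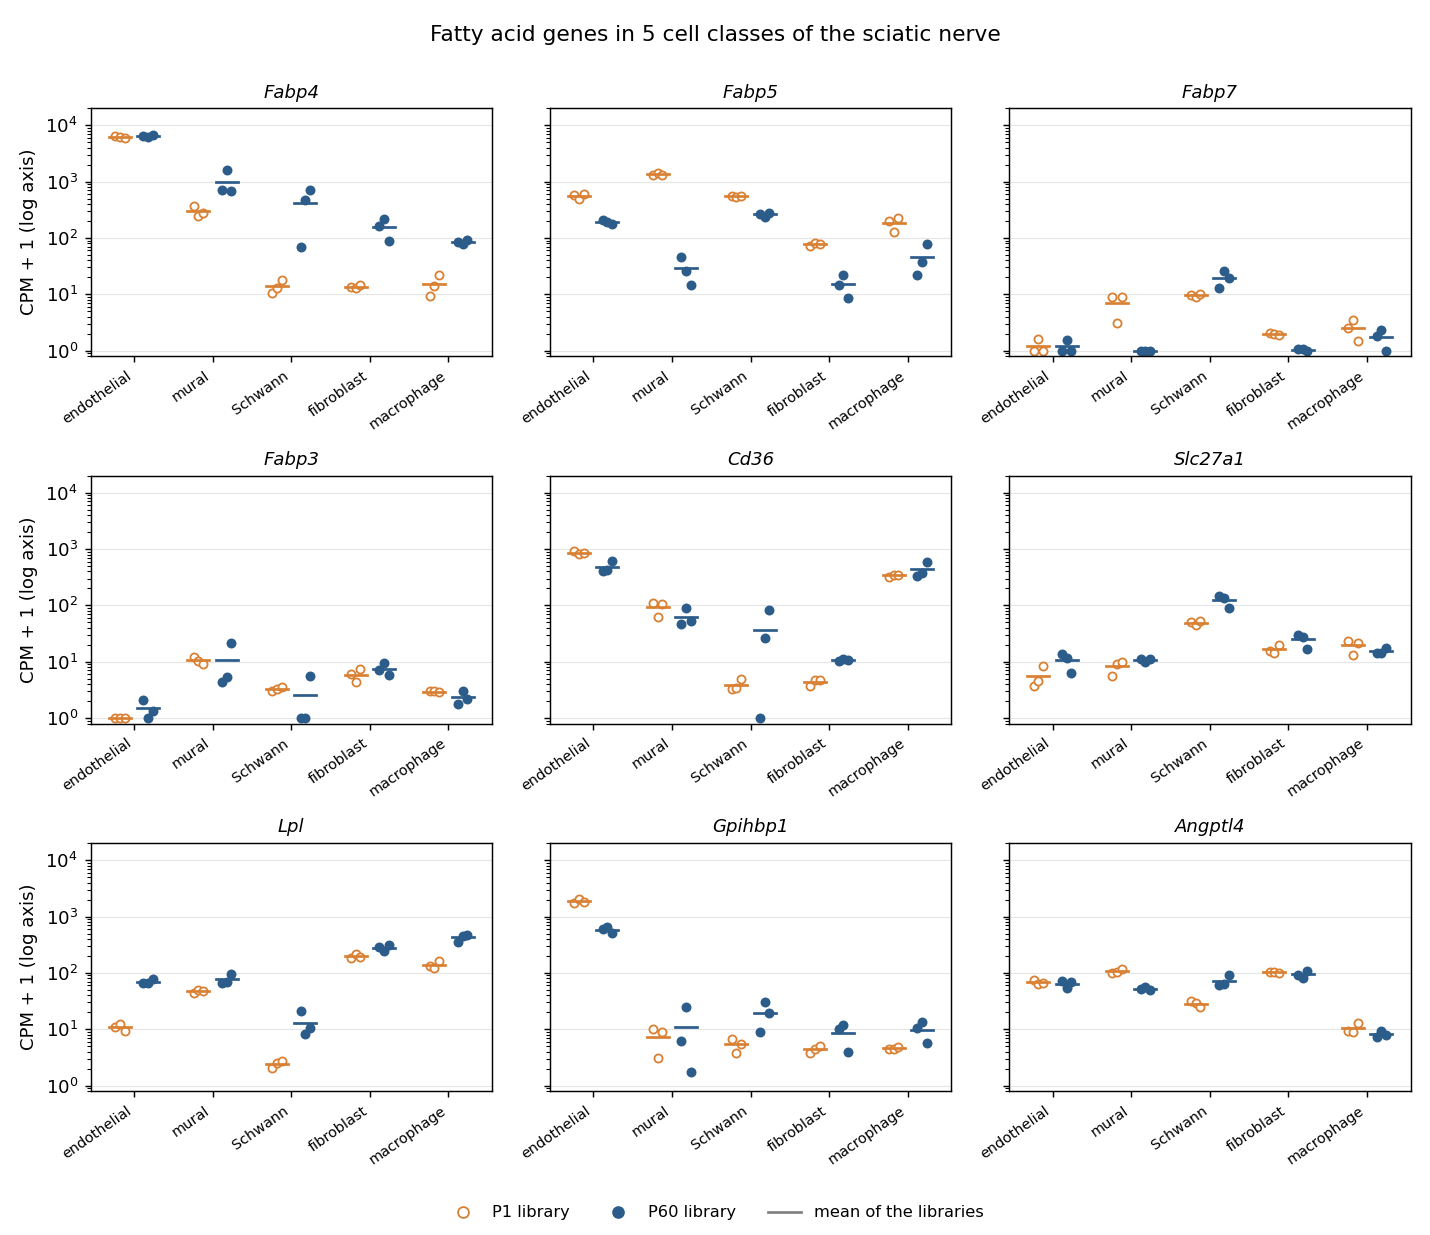
Level of each of the 9 genes in 5 cell classes, as CPM + 1 on a log axis. Open orange points are the 3 P1 libraries, filled blue points the 3 P60 libraries, and horizontal lines their means. Fabp4 and Gpihbp1 are highest in endothelial cells at both ages, Fabp5 is lower at P60 in all 5 classes, and the mural Fabp5 levels of the ages lie far apart.

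Fabp4 (ENSMUSG00000062515, GRCm38 chromosome 3, bases 10204088 to 10208576, minus strand) encodes the lipid chaperone known from adipocytes, macrophages and capillary endothelium. In endothelial cells its level was 6537, 6207 and 6029 CPM in the P1 libraries and 6392, 6129 and 6808 CPM in the P60 libraries. These values overlapped and did not pass edgeR's test (log2 change 0.04, SE 0.09, adjusted p = 0.759). With cells that held 5 UMIs of other classes' markers left out, the change passed (log2 0.48, adjusted p = 0.0059). The class level averages over subsets that differed widely.

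At P60 the endothelial class fell into 5 named subsets: barrier-like cells (792 cells; Cldn5, Slc2a1 and other barrier markers), Cd300lg-like cells of vessels without a barrier (301; Cd300lg, Plvap and Rgcc), venous-like (257), arterial-like (212) and lymphatic-like cells (116). Acta2 and Myl9, genes of contractile cells, were among the leading genes of 1 of the 2 barrier subclusters, and ribosomal pseudogenes led the other. At P1 the named subsets were Cd300lg-like (363), lymphatic-like (59) and arterial-like cells (39), and 160 cells led by Unc5b, Spock2 and Slc2a1 kept no subset name. No barrier or venous subset was named at P1, so a comparison of ages was made for the Cd300lg subset alone. Whether the P1 Cd300lg set holds cells of kinds named venous or barrier at P60 is not known. Changes of this subset thus compare sets that may be unlike.

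Within the P60 endothelium the Fabp4 level spanned a very wide range. It was 64.1, 76.9 and 122 CPM in the barrier subset and 30149, 24845 and 32569 CPM in the Cd300lg subset, a ratio of the means of 333. The venous subset had 17587, 20280 and 17213 CPM, the arterial subset 2872, 3837 and 2576 CPM and the lymphatic subset 460, 845 and 557 CPM. The 5 subsets did not overlap in any library and ranked Cd300lg, venous, arterial, lymphatic and barrier. After thinning each cell to 1500 UMIs, a Fabp4 UMI was found in 98.8% ± 1.38 of Cd300lg cells, 99.4% ± 0.962 of venous cells, 37.6% ± 5.98 of arterial cells, 20.1% ± 2.23 of lymphatic cells and 10.3% ± 1.27 of barrier cells (SD, n = 3 libraries). Lymphocytes, which should lack the gene, had it in 15.6% ± 13.8 of 82 cells, with a wide spread between libraries.

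Cd300lg cells carried more Fabp4 at P60 than at P1. Their level was 8574, 7497 and 7237 CPM at P1, so every P60 library of the subset lay above every P1 library. The change was 3.62-fold (log2 1.86, SE 0.11, edgeR adjusted p = 5.8e-10). In the unnamed P1 subcluster led by Unc5b, Spock2 and Slc2a1 the level was 2965, 3411 and 2472 CPM. The P60 Cd300lg subset itself held 2 subclusters, and both had more Fabp4 than the P1 subset: 46531, 41013 and 45833 CPM in the 162 cells led by Timp4, Cfd, Aqp7 and Lpl, and 17766, 14552 and 12504 CPM in the 139 cells led by Penk, Col13a1 and Ramp3. The former also held RNA of adipocyte markers (Cfd at 378 CPM, Car3 at 252 CPM, Retn at 46.6 CPM and Adipoq at 24.2 CPM, against 23.5, 10.1, 3.36 and 3.36 CPM in the latter), and 6 of the 7 listed adipocyte markers had a UMI there, with Lep at 0. Without that subcluster the change was log2 0.91 (adjusted p = 6.2e-07), and without all cells that held a UMI of Adipoq, Plin1 or Car3 it was log2 1.62. The part of adipocyte RNA in the remaining difference was not tested further.

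**Figure D2:**
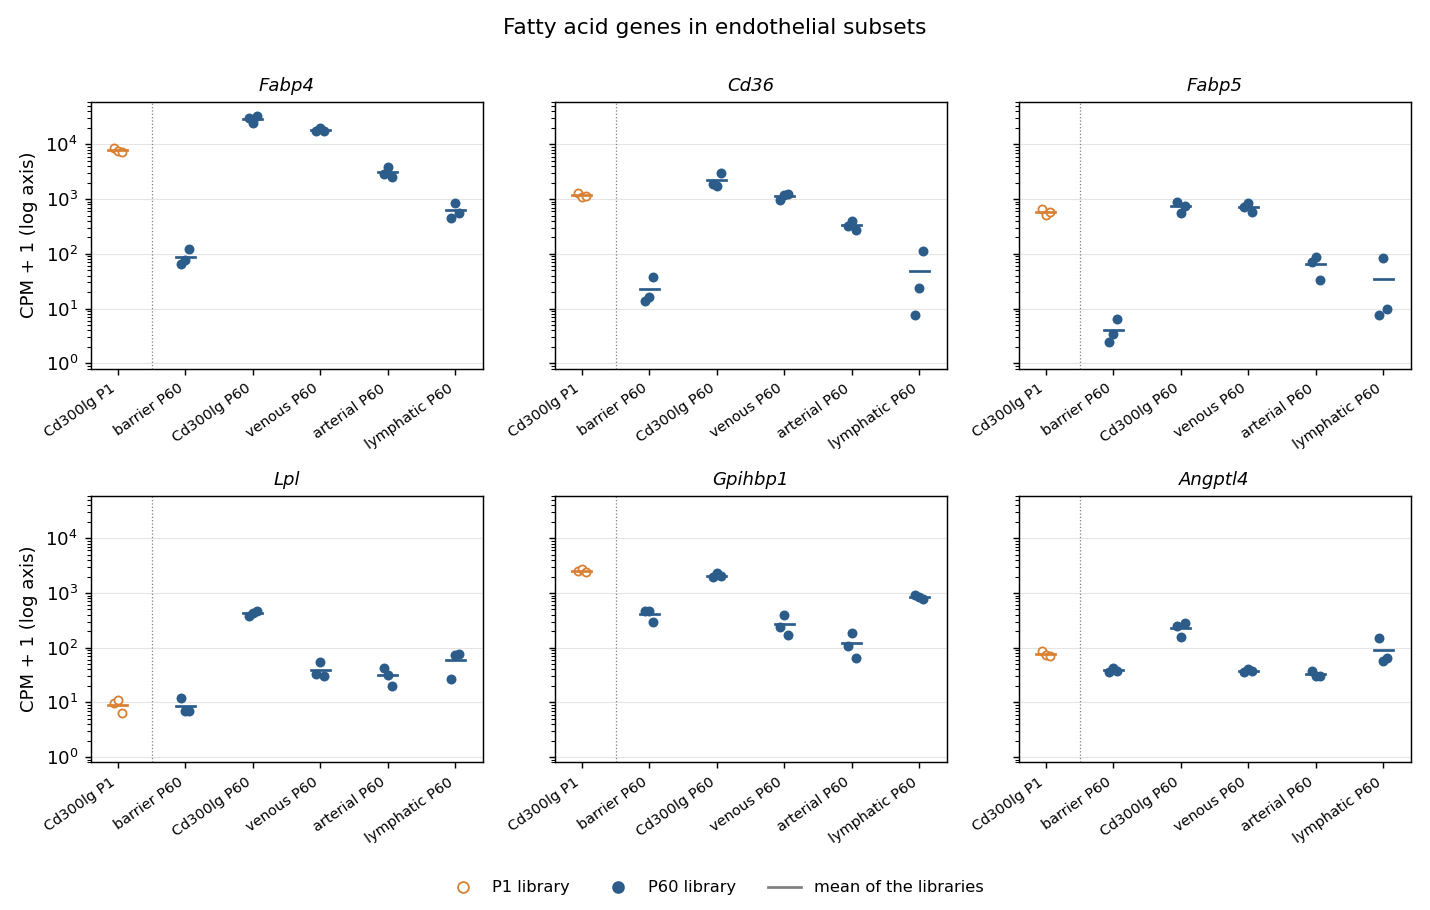
Level of 6 genes in endothelial subsets, as CPM + 1 on a log axis, with 1 point per library and the mean as a line. The open points left of the dotted line are the Cd300lg subset at P1, and the filled points are the 5 subsets at P60. Fabp4, Cd36 and Fabp5 have their lowest P60 means in the barrier subset, whereas Gpihbp1 in that subset lies at 296 to 470 CPM and above the arterial subset.

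Outside the endothelium Fabp4 was higher at P60 in each of the other 4 classes. Mural cells had 374, 240 and 277 CPM at P1 and 702, 1595 and 684 CPM at P60, and the libraries of the ages did not overlap. The change was 3.70-fold (log2 1.89, SE 0.36, adjusted p = 0.0074), and without P60 replicate 3 it was log2 2.06 with an adjusted p of 0.0526. The P60 mean was 15.4% of the endothelial mean, while the endothelial markers in mural cells were 1.34% of their endothelial level. The make-up of the mural class differed between libraries. Named smooth muscle cells numbered 50, 52 and 48 at P1 and 18, 13 and 210 at P60, and named pericytes 77, 107 and 91 and 43, 77 and 65. The part of this mix in the mural changes of any member was not tested. A P60 subcluster of 92 mural cells led by Nrgn, Dhx58os, Fabp4 and S100a4, with the lipid regulator Pparg among its leading genes, had 2787, 3821 and 1590 CPM. Pericytes had 45.6, 77.2 and 58.4 CPM at P1 and 107, 1189 and 219 CPM at P60, which did not pass the test (log2 3.15, SE 1.1, adjusted p = 0.117), and 86.0% of the P60 UMIs lay in 5 of 185 cells. It passed with DESeq2 (adjusted p = 0.0142), with the replicate number as a block (0.0071) and without P60 replicate 2 (log2 1.49, 0.0048).

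In fibroblasts, macrophages and Schwann cells the Fabp4 level at P60 was low against that of endothelial cells. Fibroblasts had 12.6, 11.7 and 13.6 CPM at P1 and 159, 218 and 88.5 CPM at P60 (log2 3.63, SE 0.32, adjusted p = 1.8e-05), and macrophages had 8.34, 12.9 and 20.9 CPM at P1 and 84.1, 78.7 and 92.5 CPM at P60 (log2 2.69, SE 0.23, adjusted p = 9.8e-07). Schwann cells had 9.56, 12.2 and 17.1 CPM at P1 and 67.3, 461 and 717 CPM at P60 (log2 5.05, SE 0.80, adjusted p = 0.0098). The ages did not overlap in any of these classes. The P60 means were 2.41%, 1.32% and 6.44% of the endothelial mean, while the summed endothelial markers in the same classes were 1.57%, 0.923% and 2.66% of their endothelial level. In Schwann cells 79.6% of the 451 Fabp4 UMIs lay in 5 of 361 cells, with 198 in a single cell, and without P60 replicate 3 the call was lost (log2 4.25, adjusted p = 0.0693). The summed adipocyte markers were also higher at P60 in these classes, in fibroblasts by little in the lowest library. They were at 1.17 to 1.99 CPM at P1 and 47.5 to 101 CPM at P60 in Schwann cells (6 of 7 markers found), at 84.1 to 85.5 and 90.5 to 459 CPM in fibroblasts (6 of 7), and at 0 to 1.99 and 5.23 to 17.3 CPM in macrophages (5 of 7). The fibroblast sum at P1 was mostly Cdo1, at 12.5 to 202 CPM in the kept subclusters, with Cfd at 0 and Adipoq at most 1.19 CPM. At P60 Cdo1 was highest in perineurial subclusters (131 to 315 CPM), so this sum does not stand for adipocyte RNA alone in fibroblasts. Without cells that held a UMI of Adipoq, Plin1 or Car3 the change was log2 3.52 in Schwann cells, 2.76 in fibroblasts and 2.66 in macrophages, and each kept its call. Of the 7211 Fabp4 UMIs of P60 fibroblasts, 3402 lay in 1 subcluster of 1202 cells led by Cxcl14, Gdf10 and Lpl. That subcluster had Cfd at 638, Car3 at 554, Adipoq at 111 and Cdo1 at 58.7 CPM. The thinned share of cells with a Fabp4 UMI was 1.73% ± 0.369 at P1 and 10.1% ± 0.738 at P60 in fibroblasts, 2.45% ± 0.640 and 10.8% ± 1.42 in macrophages and 1.75% ± 0.0859 and 11.6% ± 1.96 in Schwann cells (unthinned 28.6%, 27.4% and 20.2% at P60), each with an exact permutation p of 0.1, the smallest that 3 against 3 libraries allow. These P60 shares lie below the mean of 15.6% in lymphocytes, which rests on 82 cells with an SD of 13.8, so expression and free RNA cannot be told apart from these shares.

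Fabp5 (ENSMUSG00000027533, chromosome 3, bases 10012548 to 10016607, plus strand) encodes the binding protein first known from epidermis. It was lower at P60 in all 5 classes. The widest gap was in mural cells, with 1324, 1403 and 1323 CPM at P1 and 45.4, 25.0 and 13.7 CPM at P60. The mural ages lay far apart in every library, and the fall was 47.3-fold (log2 -5.56, SE 0.26, adjusted p = 2.4e-07). The mix of pericytes and smooth muscle cells differed between libraries, and its part in the size of this fold was not tested. The thinned share of mural cells with a UMI was 73.3% ± 0.880 at P1 and 4.73% ± 2.93 at P60, the latter no higher than the 5.26% ± 5.77 of P60 lymphocytes. Pericytes went from 1447, 1663 and 1551 CPM to 127, 30.8 and 46.7 CPM (log2 -4.65, SE 0.25, adjusted p = 1.8e-09). Smooth muscle cells had 872, 968 and 975 CPM at P1, and at P60 only replicate 3 had at least 20 such cells, with 5.47 CPM, so no test was made.

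In endothelial cells the Fabp5 level was 586, 498 and 590 CPM at P1 and 211, 193 and 179 CPM at P60, a fall of 2.88-fold (log2 -1.52, SE 0.12, adjusted p = 1.8e-07). This fall did not appear in the Cd300lg subset, which had 645, 511 and 589 CPM at P1 and 898, 567 and 750 CPM at P60, overlapping values that did not pass the test (log2 0.29, SE 0.15, adjusted p = 0.172) but passed without P60 replicate 2 (log2 0.43, adjusted p = 0.039). Its sign depended on 1 subcluster: the subcluster with adipocyte genes had 1540, 1071 and 1095 CPM and the other 413, 246 and 227 CPM, and without the former the subset was lower at P60 (log2 -1.01, adjusted p = 3.4e-05). Among the other P60 subsets, venous cells had 722, 833 and 582 CPM, arterial cells 71.2, 88.3 and 32.1 CPM, lymphatic cells 6.47, 84.5 and 8.99 CPM, and barrier cells 1.39, 2.43 and 5.38 CPM. Barrier cells thus held 16 Fabp5 UMIs in 792 cells, against 822 UMIs in 301 Cd300lg cells, and a thinned share of 0.431% ± 0.471.

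Schwann cells kept a sizeable Fabp5 level at both ages, 551, 539 and 558 CPM at P1 and 265, 238 and 276 CPM at P60. The ages did not overlap, and the fall was 2.21-fold (log2 -1.14, SE 0.14, adjusted p = 1.8e-06). With cells that held 5 UMIs of other classes' markers left out, the change was log2 -0.38 with an adjusted p of 0.374. At P60 the subcluster led by Scn7a, Cdh2 and Acsbg1 had 461, 305 and 338 CPM and that led by Emid1, Cuedc2 and Bcas1 had 205, 177 and 222 CPM. The former set of values lay above the latter in every library.

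Fibroblasts had 70.3, 79.1 and 77.5 CPM of Fabp5 at P1 and 13.7, 20.8 and 7.70 CPM at P60 (log2 -2.41, SE 0.29, adjusted p = 9.7e-05). Epineurial fibroblasts, those of the outer connective tissue, held the highest P1 level of the layers, 124, 147 and 142 CPM, and had 9.03, 12.4 and 6.97 CPM at P60 (log2 -3.88, SE 0.19, adjusted p = 2.9e-08). Perineurial cells, which form the sheath around each fascicle, went from 71.3, 62.8 and 69.9 CPM to 7.82, 11.8 and 8.62 CPM (log2 -2.82, SE 0.18, adjusted p = 3.7e-08). At P60 the 3 layers overlapped with each other. In macrophages the level was 199, 124 and 225 CPM at P1 and 21.2, 36.6 and 76.2 CPM at P60 (log2 -1.90, SE 0.45, adjusted p = 0.018). In that class 72 of the 212 P60 UMIs lay in a single cell, and the adjusted p was 0.0507 without P1 replicate 1 and 0.0542 without P60 replicate 2.

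Fabp7 (ENSMUSG00000019874, chromosome 10, bases 57784881 to 57788450, plus strand), the brain-type binding protein of glial progenitors, was low throughout. Its level was highest in Schwann cells, at P1 by a small margin over mural cells (2.05 to 8.02 CPM). Schwann cells had 8.89, 8.1 and 8.97 CPM at P1 and 11.9, 25.2 and 18.7 CPM at P60. The ages did not overlap, but the P60 values rested on 18 UMIs, and the call (log2 1.05, SE 0.39, adjusted p = 0.039) was lost in 5 settings, with an adjusted p of 0.160 without P60 replicate 3 and 0.257 without P60 replicate 2. Within P1 Schwann cells the subcluster led by Rxrg, Atf3 and Fgl2 had 19.6, 20.3 and 26.5 CPM, and the myelin-gene subcluster led by Kcnk1, Ncmap, Gldn and Pmp22 had 0.789, 2.79 and 0.675 CPM. At P60 the subcluster led by Scn7a and Cdh2 had 14.0, 50.8 and 42.3 CPM, whereas no Fabp7 UMI was found in the 92 cells led by Emid1, Cuedc2 and Bcas1. A count of 0 in 92 cells allows a share of cells with a UMI of up to 3.26%, so a low level there cannot be seen at this depth. In fibroblasts it fell from 1.04, 0.941 and 0.888 CPM (38 UMIs) to 2 UMIs at P60 (adjusted p = 1.5e-04), for which no fold is given.

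Fabp3 (ENSMUSG00000028773, chromosome 4, bases 130308595 to 130315463, plus strand), the heart-type binding protein, was at 0 CPM in P1 endothelial cells and at most 20.9 CPM in any class and library. It was tested in fibroblasts alone among the classes, with 4.97, 3.29 and 6.49 CPM at P1 and 6.09, 8.35 and 4.74 CPM at P60, overlapping values that did not pass the test (log2 0.39, SE 0.28, adjusted p = 0.251). With cells of other classes' markers left out the change turned direction and passed (log2 -1.74, adjusted p = 5.5e-04). The layers went apart. Perineurial cells had 6.48, 4.29 and 7.19 CPM at P1 and 17.8, 18.4 and 10.8 CPM at P60, all above the P1 libraries (log2 1.39, SE 0.28, adjusted p = 8.9e-04). Endoneurial fibroblasts had 6.27, 6.31 and 10.3 CPM at P1 and 2 UMIs in 856 cells at P60, a fall that passed the test (adjusted p = 0.0011) and for which no fold is given. With cells of other classes' markers left out the perineurial change was log2 -0.42 and did not pass, so its direction depended on the cells admitted.

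**Figure D3:**
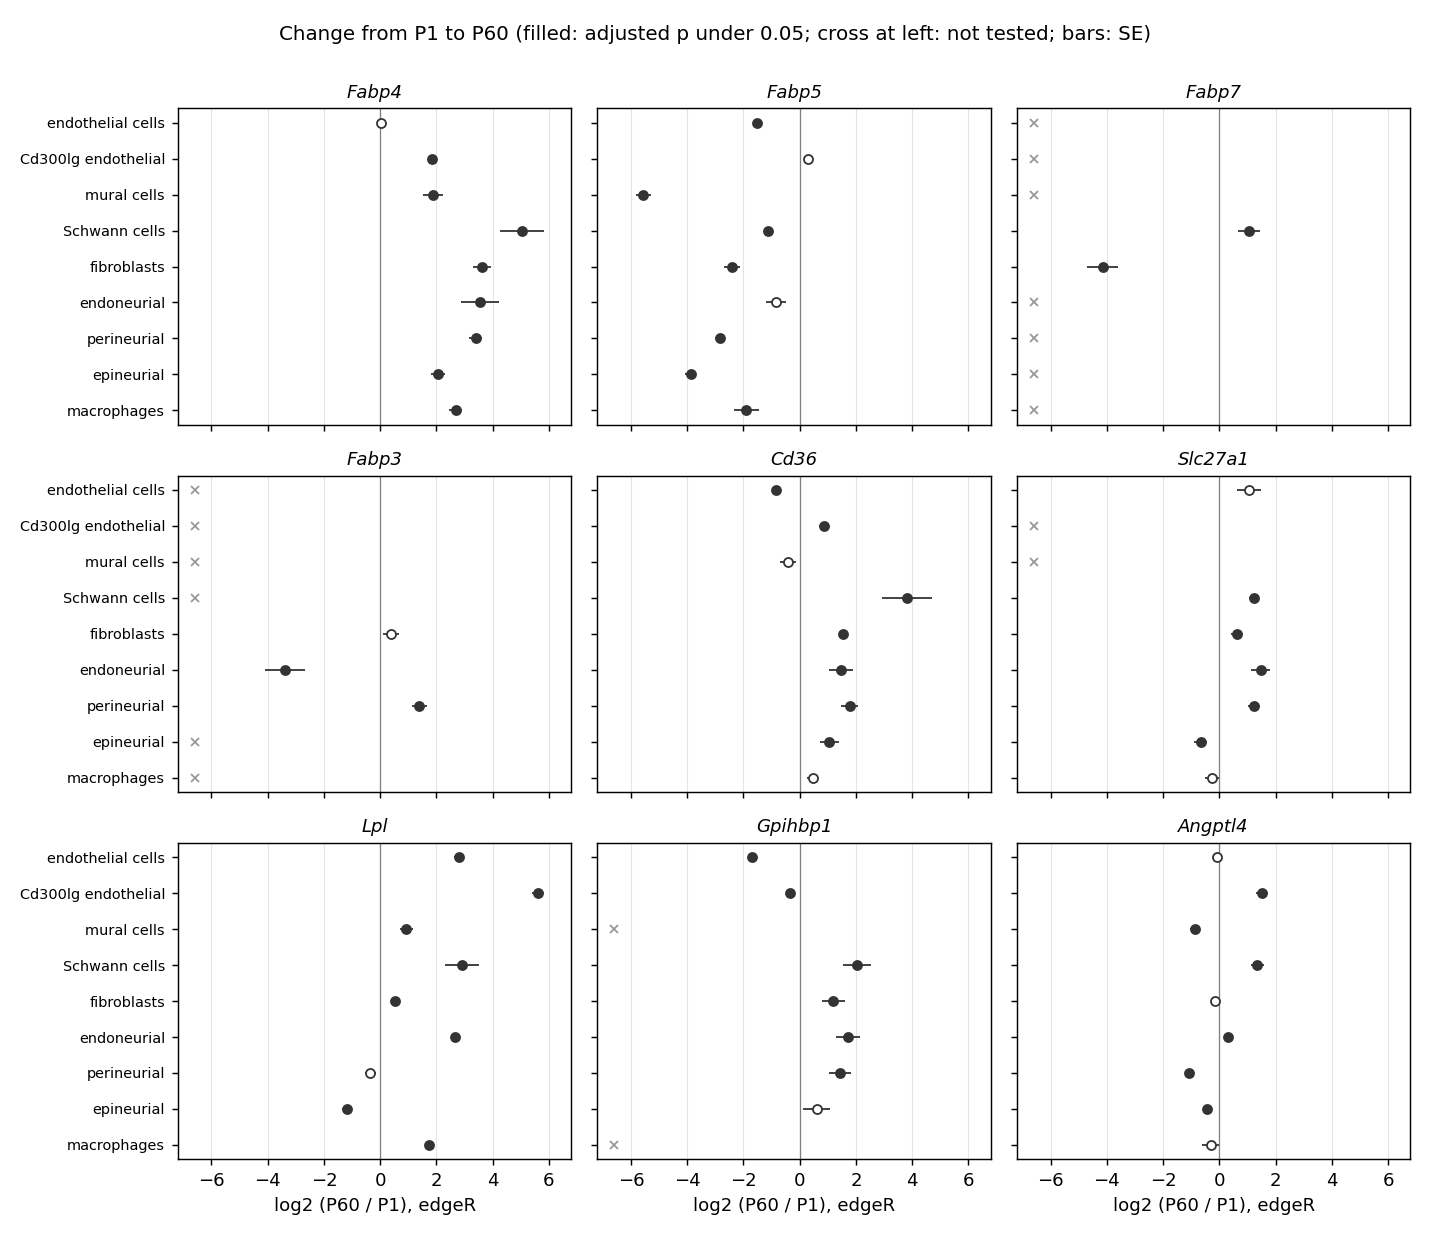
Log2 change from P1 to P60 of each gene in 9 cell groups, with an SE derived from the edgeR F value as bars. Filled points passed the test at an adjusted p under 0.05, open points did not, and crosses at the left edge mark groups with too few UMIs to test. Cd36 and Fabp4 differ between all endothelial cells and the Cd300lg subset, and Lpl and Slc27a1 point in opposite directions in endoneurial and epineurial fibroblasts. The unnamed P60 fibroblast subcluster led by Cxcl14, Gdf10 and Lpl is in none of the layers.

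Cd36 (ENSMUSG00000002944, chromosome 5, bases 17781690 to 17888801, minus strand) encodes a scavenger receptor that binds long-chain fatty acids and takes them up into capillary endothelium and macrophages. These were the classes with the highest levels at both ages. Endothelial cells had 920, 825 and 846 CPM at P1 and 414, 421 and 606 CPM at P60. The ages did not overlap, and the fall was 1.80-fold (log2 -0.85, SE 0.14, adjusted p = 2.2e-04). It did not pass when cells with 5 UMIs of other classes' markers were left out (log2 -0.37, adjusted p = 0.0627).

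The Cd300lg subset moved the other way. Its Cd36 level was 1280, 1104 and 1135 CPM at P1 and 1916, 1746 and 2986 CPM at P60, with every P60 library above every P1 library (log2 0.86, SE 0.17, adjusted p = 6.5e-04). Without P60 replicate 3 the change was log2 0.61 and kept its call. It rested on the subcluster with adipocyte genes, which had 2884, 2858 and 3967 CPM, while the other P60 subcluster had 1185, 1039 and 1500 CPM, near the P1 level. Without the former the change was log2 0.04 (adjusted p = 0.887). At P60 the venous subset had 978, 1185 and 1250 CPM, the arterial subset 319, 399 and 276 CPM, the lymphatic subset 6.47, 22.5 and 112 CPM and the barrier subset 12.5, 15.1 and 37.1 CPM. The last of these sets lay below the arterial values in all libraries, and the lymphatic and barrier values overlapped. The thinned share with a Cd36 UMI was 2.98% ± 1.47 in barrier cells, 84.7% ± 4.24 in Cd300lg cells, and in 0 of 82 lymphocytes, which allows up to 3.66% and so does not set the barrier share apart.

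In macrophages the Cd36 level was 324, 343 and 352 CPM at P1 and 329, 375 and 600 CPM at P60, overlapping values with a log2 change of 0.46 (SE 0.18, adjusted p = 0.058). The change passed in 5 settings, among them that with cells of other classes' markers left out (log2 0.89, adjusted p = 0.0025), 50 cells per library (0.014) and without P60 replicate 1 (0.024). The thinned share of macrophages with a Cd36 UMI was 25.8% ± 1.52 at P1 and 43.2% ± 10.7 in the adult (p = 0.1 by the exact permutation test, the smallest possible). Cd36 was unevenly spread over macrophage subclusters. At P60 it was 563, 789 and 1056 CPM in the 366 cells led by Cd209f, Fcna and Ccl8, 377, 364 and 547 CPM in the 316 cells led by Lilra5, Cd72 and Hspa1a, and 58.6, 84.0 and 116 CPM in the 229 cells led by Lyz1, Ear2 and Upb1. At P1 the subcluster of 161 cells led by Akr1b8, Lyve1 and Folr2 had the highest values of the 4 larger macrophage subclusters, 689.5, 668 and 700.1 CPM.

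Mural cells had 111, 61.6 and 104 CPM of Cd36 at P1 and 45.4, 88.3 and 51.9 CPM at P60, which overlapped (log2 -0.42, SE 0.27, adjusted p = 0.260). It passed as a fall with cells of other classes' markers left out (log2 -0.93, adjusted p = 0.029) and as a rise with the mixed clusters counted as mural (log2 2.62, adjusted p = 3.0e-05). Fibroblasts had 2.65, 3.68 and 3.69 CPM at P1 and 9.27, 10.3 and 9.90 CPM at P60, a small level that passed the test (log2 1.55, SE 0.17, adjusted p = 3.1e-05) and whose P60 mean was 2.05% of the endothelial mean. In Schwann cells the P60 libraries had 0, 25.2 and 82.0 CPM against 2.35, 2.40 and 3.84 CPM at P1. These overlapped, 66.7% of the 42 P60 UMIs lay in 5 cells, and the call (log2 3.81, adjusted p = 0.0155) was lost without P60 replicate 3 (log2 2.05, adjusted p = 0.0573).

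Slc27a1 (ENSMUSG00000031808, chromosome 8, bases 71568882 to 71587302, plus strand) encodes the fatty acid transport protein FATP1, which also activates the acids it takes up by joining them to coenzyme A. It was highest in Schwann cells at both ages, with 49.0, 43.1 and 52.1 CPM at P1 and 147, 137 and 89.0 CPM at P60. The ages did not overlap, and the rise was 2.35-fold (log2 1.23, SE 0.19, adjusted p = 3.3e-05). The thinned share of Schwann cells with a UMI was 6.75% ± 0.913 at P1 and 18.8% ± 6.23 at P60 (unthinned 24.9% and 28.8%), with p = 0.1 by the exact permutation test. Unlike Fabp7, it was spread over the P60 Schwann subclusters, with 168, 203 and 73.9 CPM in that led by Scn7a and Cdh2 and 169, 99.8 and 88.8 CPM in that led by Emid1 and Cuedc2, and these overlapped. Its level in P1 Schwann subclusters was 40.8 CPM in that led by Rxrg, 65.5 CPM in that led by Lpcat1 and 49.8 CPM in that led by Kcnk1 and Ncmap, as means of 3 libraries.

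The fibroblast layers differed in Slc27a1. Endoneurial fibroblasts, those inside the fascicle, had 22.7, 19.5 and 28.0 CPM at P1 and 86.5, 67.7 and 27.5 CPM at P60, where replicate 3 lay within the P1 range (log2 1.47, SE 0.34, adjusted p = 0.0068). Perineurial cells had 15.1, 17.6 and 18.6 CPM at P1 and 47.8, 42.2 and 30.1 CPM at P60, without overlap (log2 1.23, SE 0.20, adjusted p = 1.7e-04). Epineurial fibroblasts had 8.85, 8.27 and 10.8 CPM at P1 and 6.92, 6.41 and 4.52 CPM at P60 (log2 -0.67, SE 0.22, adjusted p = 0.029), a fall that did not pass with DESeq2 (adjusted p = 0.0789). In all fibroblasts the call (log2 0.63, adjusted p = 0.034) was lost in 9 of the other settings, and in endothelial cells the change did not pass (log2 1.06, SE 0.43, adjusted p = 0.062). The endothelial change passed in 4 settings, with no filter on low counts (0.018), without lymphatic cells (log2 1.64, adjusted p = 0.013), without P1 replicate 3 (0.033) and without P60 replicate 3 (0.0016).

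Lpl (ENSMUSG00000015568, chromosome 8, bases 68880491 to 68907448, plus strand) encodes lipoprotein lipase, which frees fatty acids from the triglycerides of lipoproteins. Its level was higher at P60 in all 5 classes. Macrophages and fibroblasts held the highest levels. Macrophages had 130, 122 and 161 CPM at P1 and 357, 457 and 466 CPM at P60, a rise of 3.33-fold with no overlap (log2 1.74, SE 0.16, adjusted p = 1.3e-06). Fibroblasts had 180, 217 and 187 CPM at P1 and 289, 244 and 308 CPM at P60 (log2 0.52, SE 0.12, adjusted p = 0.0036).

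Lpl was unevenly spread over the macrophages of P60. In the 229 cells led by Lyz1, Ear2 and Upb1, in which Cd36 was low, Lpl was 884, 979 and 1498 CPM. In the 366 cells led by Cd209f, Fcna and Ccl8, in which Cd36 was high, it was 150, 145 and 232 CPM, and in the 316 cells led by Lilra5 it was 153, 193 and 144 CPM. The first set lay above the other sets in every library. In the P1 subcluster led by Akr1b8, Lyve1 and Folr2, Lpl was 279, 272 and 328 CPM, with high Cd36 in the same cells. The thinned share of all macrophages with an Lpl UMI was 12% ± 1.73 at P1 and 26.6% ± 3.06 in the adult (p = 0.1 by the exact permutation test, the smallest possible). No Lpl UMI was found in 82 lymphocytes, which allows a share of up to 3.66%.

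**Figure D4:**
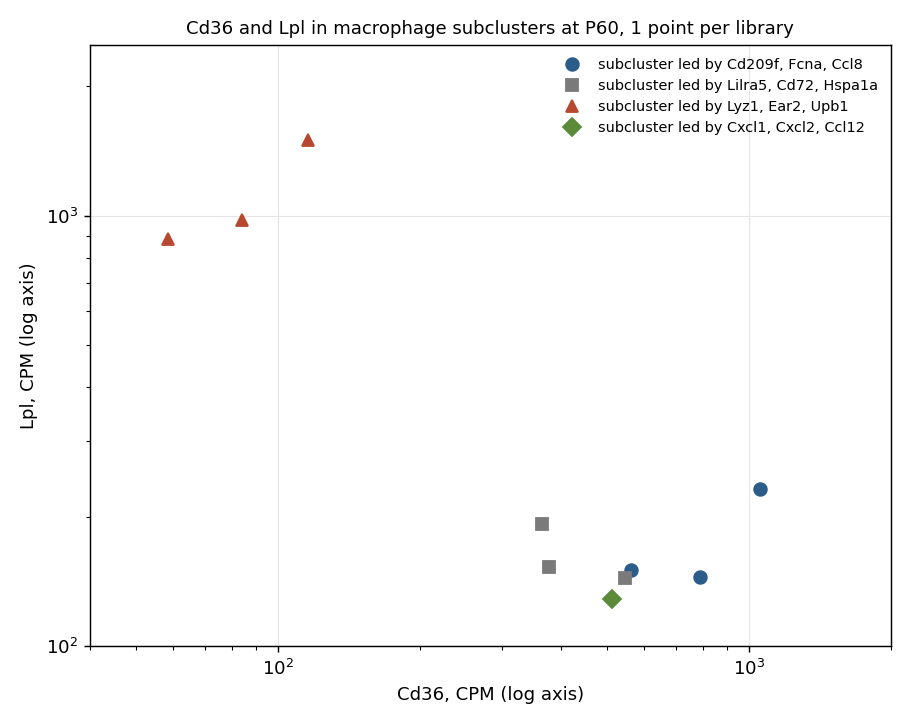
Cd36 against Lpl in the macrophage subclusters of P60, in CPM on log axes, with 1 point per library that had at least 20 cells of the subcluster. The 3 libraries of the subcluster led by Lyz1, Ear2 and Upb1 sit at 884 to 1498 CPM of Lpl and 58.6 to 116 CPM of Cd36, and all other points lie at higher Cd36 and lower Lpl.

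The named fibroblast layers changed in opposite directions for Lpl. Epineurial fibroblasts had 504, 543 and 516 CPM at P1 and 196, 193 and 312 CPM at P60, a fall of 2.29-fold with no overlap (log2 -1.20, SE 0.16, adjusted p = 1.1e-04). Endoneurial fibroblasts had 29.8, 23.9 and 26.1 CPM at P1 and 148, 141 and 194 CPM at P60, a rise of 6.37-fold (log2 2.67, SE 0.15, adjusted p = 1.6e-09). Perineurial cells had 18.0, 26.1 and 19.0 CPM at P1 and 15.0, 17.5 and 16.4 CPM at P60, with no overlap but without passing the test (log2 -0.35, SE 0.19, adjusted p = 0.128). At P1 the epineurial level was 19.6 times the endoneurial one, and at P60 it was 1.45 times, with overlapping libraries. A P60 subcluster of 1202 fibroblasts led by Cxcl14, Gdf10 and Lpl, to which no layer name was given, had 1205, 1148 and 1653 CPM, above all named layers. These cells enter none of the layer values, so the epineurial fall holds for the named cells alone. The change with them counted as epineurial was not tested. The paper reports a few cells with adipocyte markers within its P60 epineurial cluster. The 1202 cells held adipocyte markers, with Cfd at 638, Car3 at 554, Adipoq at 111, Retn at 37.0 and Plin1 at 19.8 CPM. Lep was at 0. Cdo1, the remaining listed marker, was at 58.7 CPM there and higher in the P60 perineurial subclusters (131 to 315 CPM). Without cells that held a UMI of Adipoq, Plin1 or Car3 the Lpl change over all fibroblasts was log2 0.41 (adjusted p = 0.022). When the 9 genes were kept among the variable genes, cells moved between clusters, and the perineurial change was log2 -2.67 (adjusted p = 5.3e-08).

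**Figure D5:**
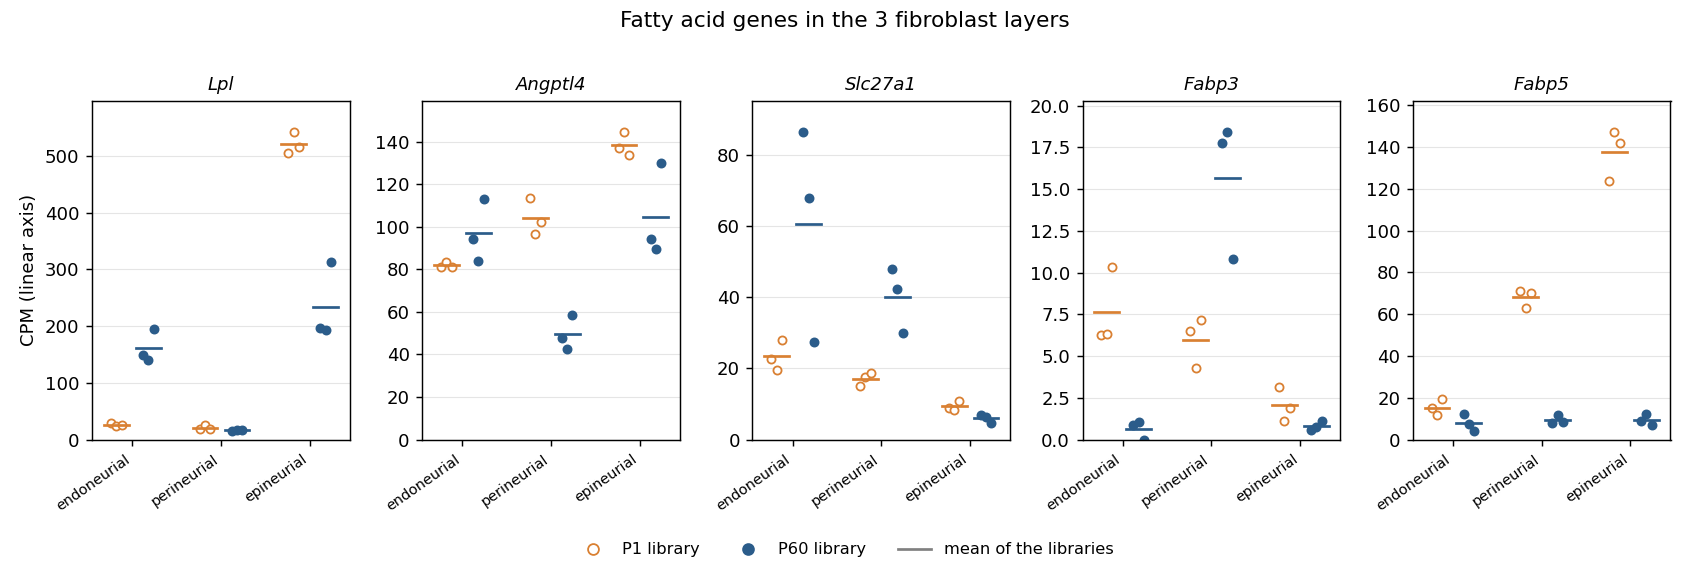
Level of 5 genes in the 3 fibroblast layers, in CPM on a linear axis that starts at 0, with 1 point per library and the mean as a line (open: P1, filled: P60). Lpl is lower at P60 in epineurial and higher in endoneurial fibroblasts, Angptl4 is lower in perineurial cells, Fabp3 at P60 is highest in perineurial cells, and Fabp5 is low in all layers at P60. The unnamed P60 subcluster led by Cxcl14, Gdf10 and Lpl is not shown.

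In endothelial cells Lpl was 10.0, 11.2 and 8.12 CPM at P1 and 64.6, 66.0 and 76.1 CPM at P60, a rise of 6.99-fold (log2 2.81, SE 0.19, adjusted p = 3.7e-08). The Cd300lg subset held most of it: 8.60, 10.3 and 5.43 CPM at P1 and 374, 421 and 470 CPM at P60 (log2 5.62, SE 0.22, adjusted p = 4.9e-12), while the other P60 subsets had at most 76.4 CPM in any library. Within it the subcluster with adipocyte genes had 784, 1040 and 760 CPM and the other 63.5, 27.7 and 32.5 CPM, and without the former the rise was log2 2.25 (adjusted p = 2.2e-04). With cells that held a UMI of Adipoq, Plin1 or Car3 left out, it was log2 5.39. Adipocytes make lipoprotein lipase, and the summed adipocyte markers were at 0 to 2.35 CPM in endothelial cells at P1 and at 37.8 to 93.0 CPM at P60.

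Mural cells had 43.1, 48.3 and 47.1 CPM of Lpl at P1 and 64.0, 69.2 and 94.3 CPM at P60 (log2 0.93, SE 0.23, adjusted p = 0.0073), a call lost with cells of other classes' markers left out (log2 0.71, adjusted p = 0.171) and with 50 cells per library (0.084). Pericytes showed a wider difference, with 14.2, 13.2 and 12.2 CPM at P1 and 73.3, 80.8 and 79.3 CPM at P60 (log2 2.57, SE 0.35, adjusted p = 2.0e-05), and with the 9 genes kept among the variable genes this was log2 0.66 (adjusted p = 0.0899). In Schwann cells 11 UMIs at P60 gave 19.8, 7.21 and 9.37 CPM against 1.01, 1.5 and 1.71 CPM at P1 (log2 2.92, SE 0.61, adjusted p = 8.1e-04). Adipocyte markers in Schwann cells were at 1.17 to 1.99 CPM at P1 and 47.5 to 101 CPM at P60.

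Gpihbp1 (ENSMUSG00000022579, chromosome 15, bases 75596628 to 75599481, plus strand) encodes the endothelial protein that binds lipoprotein lipase and shuttles it to the capillary lumen. Endothelial cells had 1771, 2055 and 1813 CPM at P1 and 602, 641 and 515 CPM at P60. The ages lay well apart, and the fall was 3.21-fold (log2 -1.68, SE 0.12, adjusted p = 6.8e-08). In no other class did a library exceed 28.8 CPM. Among P60 subsets the Cd300lg cells had 1977, 2274 and 2003 CPM, lymphatic cells 926, 828 and 782 CPM, barrier cells 470, 470 and 296 CPM, venous cells 237, 393 and 172 CPM and arterial cells 106, 186 and 64.2 CPM. Cd300lg cells lay above lymphatic cells and these above barrier cells in every library, while the barrier and venous values and the venous and arterial values overlapped.

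Barrier cells therefore had little Fabp4, Cd36 and Fabp5 but a clear Gpihbp1 level. The thinned share with a Gpihbp1 UMI was 35.2% ± 7.53 in barrier cells, 77.6% ± 5.27 in Cd300lg cells, 62.5% ± 4.66 in lymphatic cells, and in 0 of 82 lymphocytes, which allows up to 3.66%. The Cd300lg subset itself had 2556, 2701 and 2462 CPM at P1, above its P60 values in every library, and the small fall (log2 -0.35, SE 0.12, adjusted p = 0.027) was lost in 7 settings, with DESeq2 at an adjusted p of 0.0545. Its subclusters differed, with 3381, 3786 and 2894 CPM in that with adipocyte genes and 915, 1312 and 656 CPM in the other, and without the former the fall was log2 -1.44 (adjusted p = 4.1e-06). The P1 subcluster led by Unc5b, Spock2 and Slc2a1 had 1203, 1784 and 1231 CPM. In Schwann cells 18 UMIs at P60 gave 7.92, 28.8 and 18.7 CPM against 5.70, 2.85 and 4.56 CPM at P1 (log2 2.04, adjusted p = 0.0034), a mean of 3.16% of the endothelial one beside 2.66% for the endothelial markers in the same cells. The call was lost without P60 replicate 2 (adjusted p = 0.0592). Fibroblasts had 2.73 to 4.03 CPM at P1 and 2.96 to 11 CPM at P60, a call (adjusted p = 0.034) lost in 10 settings.

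Angptl4 (ENSMUSG00000002289, chromosome 17, bases 33773750 to 33781830, minus strand) encodes a secreted inhibitor of lipoprotein lipase. Fibroblasts had 103, 105 and 99.5 CPM at P1 and 89.4, 81.0 and 108 CPM at P60, which overlapped (log2 -0.15, SE 0.11, adjusted p = 0.279) but passed without P60 replicate 3 (log2 -0.24, adjusted p = 0.0021). Mural cells had 98.7, 105 and 116 CPM at P1 and 50.5, 55.9 and 48.3 CPM at P60, without overlap (log2 -0.88, SE 0.17, adjusted p = 0.0018). That call was lost with cells of other classes' markers left out (log2 -0.41, adjusted p = 0.306) and with 50 cells per library (0.147), and the direction turned with the mixed clusters counted as mural (log2 0.17). Schwann cells had 30.5, 27.8 and 24.2 CPM at P1 and 59.4, 61.3 and 91.3 CPM at P60, also without overlap and in the other direction (log2 1.36, SE 0.23, adjusted p = 8.6e-05). Macrophages stayed at 6.29 to 11.9 CPM at both ages.

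In endothelial cells Angptl4 was 74.3, 61.6 and 66.2 CPM at P1 and 69.5, 53.1 and 68.6 CPM at P60, which overlapped (log2 -0.09, SE 0.15, adjusted p = 0.688). The Cd300lg subset had 87.2, 72.9 and 69.5 CPM at P1 and 253, 155 and 277 CPM at P60, without overlap (log2 1.52, SE 0.20, adjusted p = 1.3e-05), and it kept its call without the subcluster with adipocyte genes (log2 1.02). Barrier cells had 35.5, 41.8 and 35.9 CPM, venous cells 34.7, 39.3 and 37.1 CPM and arterial cells 36.8, 28.8 and 28.9 CPM, all below the Cd300lg cells. Among fibroblast layers the perineurial level fell from 113, 96.8 and 102 CPM to 47.8, 42.5 and 58.6 CPM (log2 -1.07, SE 0.14, adjusted p = 3.1e-05). Epineurial fibroblasts had 137, 145 and 134 CPM at P1 and 94.1, 89.7 and 130 CPM at P60 (log2 -0.45, adjusted p = 0.022), and endoneurial fibroblasts 80.9, 83.5 and 81.0 CPM and 94.3, 83.8 and 113 CPM (log2 0.32, adjusted p = 0.047). The last 2 calls were lost in 6 and 9 settings.

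In the subsets that could be tested across ages, 5 of 6 tested members changed in Cd300lg cells, 4 higher and 1 lower, where 30.5% of all tested genes changed (15.6% higher and 14.9% lower). In pericytes 3 of 5 changed, 2 higher and 1 lower (26.5% of all genes, 14.3% higher and 12.3% lower). The pericyte rise of Cd36 (log2 1.18, SE 0.36, edgeR adjusted p = 0.019) did not pass with DESeq2 (adjusted p = 0.0635). It was also lost without P1 replicate 1, P1 replicate 2 or P60 replicate 2. With the members among the variable genes its direction turned (log2 -0.10). In endoneurial fibroblasts 7 of 8 changed, 6 higher and 1 lower (46.7%, with 23.9% higher and 22.8% lower), and in perineurial cells 7 of 8 changed, 5 higher and 2 lower (55.2%, with 28.3% higher and 26.9% lower). In epineurial fibroblasts 6 of 7 changed, 2 higher and 4 lower (46.7%, with 24.1% higher and 22.6% lower). The higher members included Fabp4 and Cd36 in each of these fibroblast layers, and Gpihbp1 in the endoneurial and perineurial layers. Their thinned shares at P60 were 9.52% to 10.2% for Fabp4, 1.08% to 1.68% for Cd36 and at most 1.71% for Gpihbp1. They lie below the lymphocyte mean of 15.6% (SD 13.8) for Fabp4 and the 3.66% allowed by 0 of 82 lymphocytes for Cd36 and Gpihbp1. The part of free RNA in these rises was not tested. Whether the change with age differed among the 5 classes was tested in 1 edgeR fit over the 30 sums with library as a block. It differed for 8 of the 9 members, where 60.6% of all tested genes differed, and Fabp3 did not pass (F = 0.569, adjusted p = 0.728). The F value was 40.3 for Lpl, 21.5 for Cd36, 20.2 for Fabp5, 20.1 for Angptl4, 19.8 for Fabp4, 19.6 for Gpihbp1, 11.4 for Fabp7 and 6.39 for Slc27a1.

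Other genes of lipid handling were counted from lists that do not hold the 9 members. Beside these counts, the shares of all tested genes higher and lower at P60 were 20.3% and 18.8% in endothelial cells and 19.9% and 18.6% in Schwann cells. They were 18.5% and 16.3% in mural cells, 21.2% and 18.2% in macrophages and 31.1% and 28.8% in fibroblasts. No list was tested as a set. In endothelial cells, of the 15 tested genes of uptake and activation 4 rose and 3 fell. Mfsd2a, the carrier of lysophosphatidylcholine across the blood-brain barrier, rose from 3.90 ± 3.39 to 254 ± 62.4 CPM (log2 6.06), and Cav1, the main protein of endothelial caveolae, fell from 2174 ± 141 to 894 ± 64.6 CPM (log2 -1.28). Of 7 lipases and partners 4 rose and none fell, led by Apoe (log2 1.83), of 9 genes of oxidation 1 rose (Cpt1a, log2 0.95) and 3 fell, of 5 regulators Tcf15 fell (log2 -1.31), of 3 storage genes Plin2 rose (log2 0.47), and among other binding proteins Rbp7 rose (from 87.5 ± 13.1 to 248 ± 12.9 CPM). Tcf15 and its partner Meox2 are known as regulators of fatty acid uptake in heart capillaries. These changes were taken over all endothelial cells, whose subsets differed between the ages.

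In Schwann cells 7 of 15 tested uptake and activation genes rose and 1 fell, with Cav2 from 5.25 ± 0.905 to 114 ± 20.4 CPM and Slc27a4, a relative of Slc27a1, from 18.4 ± 1.13 to 9.01 ± 4.96 CPM (log2 -1.21). Of 7 lipases and partners 4 rose and none fell, with Apoe, the lipid carrier of glia, from 815 ± 42.1 to 6645 ± 944 CPM (log2 2.96). Of 10 oxidation genes 1 rose and none fell, of 5 regulators 2 rose and none fell, of 4 storage genes 2 rose and 1 fell (Dgat2, log2 -2.12), and among other binding proteins Rbp7 rose.

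Mural cells showed rises in 4 of 11 uptake and activation genes, led by the lipoprotein receptor Vldlr (log2 2.53), in 4 of 7 lipases and partners, in 2 of 6 regulators, led by Tcf15 (log2 1.48), in 4 of 10 oxidation genes and in 1 of 4 storage genes, Plin4, which was at 1 UMI or fewer in each P1 library and at 64.7 ± 32.1 CPM at P60. Lipg, an endothelial lipase gene, was at 0 in P1 mural cells and at 15.6 ± 5.64 CPM at P60. Among the lipases and partners, Lipa fell in that class (log2 -0.84). In macrophages 7 of 13 uptake and activation genes rose and none fell, 1 of 7 lipases and partners rose (Lipe) and 3 fell, with Apoc1 at log2 -4.23, 2 of 4 regulators rose, 1 of 9 oxidation genes rose and 2 fell, and 1 of 3 storage genes fell, the lipid droplet gene Plin2 (log2 -1.48).

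Fibroblasts, the class with the most genes called, had 10 of 16 uptake and activation genes higher and 2 lower, 6 of 9 lipases and partners higher and 1 lower, 4 of 7 regulators higher and 1 lower, 4 of 11 oxidation genes higher and none lower, 2 of 5 storage genes higher and none lower, and 2 of 4 other binding proteins in each direction. Mgll, which cleaves monoglycerides, rose from 23.6 ± 1.36 to 103 ± 14.9 CPM (log2 2.12), Scarb1, a receptor for high-density lipoprotein, fell from 37.1 ± 1.70 to 12.3 ± 1.85 CPM (log2 -1.59), and the retinoic acid binding gene Crabp1 fell from 20.1 ± 1.53 to 0.621 ± 0.288 CPM (log2 -4.93). All values after ± are the SD of 3 libraries.

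The genes whose pattern was most like that of each member were found by Pearson's correlation of log2(CPM + 1) over the 30 sums of 5 classes in 6 libraries, among 13336 genes. The sums of a library share its depth and the classes recur, so r is a description. Gpihbp1 was nearest to Myct1 (r = 0.976), C1qtnf9 and Rasip1, Cd36 to Smagp (r = 0.966), Gm17745 and Grap, and Fabp4 to Adgrf5 (r = 0.962), Cds2 and Esam. Angptl4 was nearest to Akap12 (r = 0.937), Slc27a1 to Aspa (r = 0.927), Gpt2 and Dbi, Lpl to Rnase4 (r = 0.899), Fabp7 to Faah (r = 0.891) and Mbp, Fabp5 to Hmgb3 (r = 0.851) and Tmpo, and Fabp3 to Sfxn1 (r = 0.848). No member was among the 3 genes nearest to another member. Between members, r was 0.82 for Fabp4 with Gpihbp1, 0.59 for Fabp4 with Cd36 and -0.68 for Fabp5 with Lpl.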

How the data were processed

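The authors deposited, for each of 6 libraries, UMI counts in a sparse table of genes by cell barcodes, as Cell Ranger writes it for barcodes it calls cells, without any scaling. The submitters' processing notes name Cell Ranger 2.0.2 and GRCm38.p5. The methods name a human build, whereas the gene identifiers are those of mouse genes, and coordinates were taken from GENCODE M21 (GRCm38) by identifier. Whether the strand was used in counting is not given in the sources used here. A deposited cell annotation was not used here.

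Following the workflow of the study, barcodes with 500 to 5000 genes were kept (11735 of 11827 at P1, 12602 of 12683 at P60) and clustered per age with R 4.3.3 and Seurat 5.3.0 on 10 principal components at resolution 0.5 (P1) and 0.4 (P60), with the 9 genes left out of the variable genes, which gave 14 and 18 clusters. Each class was clustered again at resolution 0.5. A class name needed 3 markers at 2 times the median of the clusters, and a subset name 3 markers at 1.5 times the other cells of its class. Macrophages were named among the leukocytes by this subset rule. A leukocyte subcluster left without a name was also called macrophage where 5 macrophage markers reached 2 times the non-immune cells. These thresholds were set after seeing the data. Subclusters with 3 markers of another class were left out, among them 386 P60 cells with endothelial and mural markers. Doublets were not removed beyond the limit of 5000 genes. Names rebuilt in this way may differ from those of the study.

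UMI counts were summed per library and class (at least 20 cells) and tested with edgeR 4.0.16, which was tested on simulated data first. The settings were TMM, filterByExpr, the quasi-likelihood test, Benjamini-Hochberg adjustment over all genes tested and a threshold of 0.05. SE stands for the absolute log2 change divided by the square root of the F value of that quasi-likelihood test. Shares of cells were taken after thinning each cell to 1500 UMIs, leaving out shallower cells (0 to 67 per class), and compared by a two-sided exact permutation test. Depth differed between ages (median UMIs of endothelial cells 6094 at P1 and 4351 at P60, of Schwann cells 5923 and 2245, of lymphocytes 2703). Alternatives were DESeq2 1.42.0, library size alone, no filter on low counts, the replicate number as a block, each library left out, a mitochondrial limit, clustering with the 9 genes, cells with 5 UMIs of other classes' markers left out, 50 cells per class and library, and 5 settings chosen after seeing the data.

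The members and the lists were chosen with earlier results of these data known. Named are all 9 members, the called gene with the largest rise and fall of each list, and the 3 genes most like each member. Some genes that this rule names are not reported here.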

Additional observations from a re-analysis of the deposited data

Results flagged for a closer look

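The change from P1 to P60 differed among the 5 classes for 8 members, by edgeR's quasi-likelihood F test of the interaction of class and age (4 degrees of freedom, adjusted over all genes tested). The adjusted p was 1.2e-11 for Lpl, which was higher at P60 in every class. Its rise was log2 0.52 in fibroblasts, 2.81 in endothelial cells and 2.92 in Schwann cells, the last on 11 UMIs at P60. For Angptl4, higher in Schwann cells and lower in mural cells, the adjusted p was 2.3e-09. For Fabp7, higher in Schwann cells and lower in fibroblasts, it was 4.0e-06. Cd36 had 1.0e-05, with a fall in endothelial cells and rises in fibroblasts and Schwann cells, and Fabp5 had 1.5e-05, with falls from log2 -1.14 in Schwann cells to log2 -5.56 in mural cells. Fabp4 had 1.7e-05, with no change called in endothelial cells and rises in the other classes, Gpihbp1 had 1.8e-05, with a fall in endothelial cells, and Slc27a1 had 7.3e-04, with a rise in Schwann cells and no call in macrophages. Several of these calls within a class were lost in other settings, among them Fabp7 and Cd36 in Schwann cells and Angptl4 in mural cells. Across all genes tested, 60.6% passed the same interaction test.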

How the results depend on the processing

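Of 1008 values of a member's change under another setting, 891 kept their direction and their side of the threshold, 77 lost the call, 24 gained it and 16 changed direction. The number of members called moved by more than 1.5 times in few cases. With 50 cells per class and library it was 2 in mural cells (4 with all cells), 2 in Schwann cells (8), 1 in fibroblasts (7) and 3 for the interaction (8), with fewer cells behind each sum. With cells of other classes' markers left out it was 2 in Schwann cells and 18 over the subsets (28). In Schwann cells only Fabp4, Fabp5 and Slc27a1 could be tested in that setting, and of these Fabp5 lost its call. The limit is a count of UMIs, so deeper cells reach it more easily, and the number of cells it leaves is not given here. The cause of the lower count over the subsets was not tested. Leaving out each library in turn gave 5 to 8 in Schwann cells.

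The changes of direction were those of Fabp4 in endothelial cells (log2 -0.19 without cells holding Adipoq, Plin1 or Car3 and, with each library left out in turn, -0.0010 without P1 replicate 3 to 0.064 without P1 replicate 1), of Angptl4 in endothelial cells (0.24 without cells of other classes' markers, 0.10 with 50 cells, 0.061 without lymphatic cells and, with each library left out in turn, -0.16 without P1 replicate 2 to 0.024 without P60 replicate 2), of Cd36 in mural cells (0.35 with the members among the variable genes, 0.11 with 50 cells and 2.62 with the mixed clusters counted as mural), of Angptl4 in mural cells (0.17 with those clusters), of Fabp3 in fibroblasts (-1.74) and in perineurial cells (-0.42) without cells of other classes' markers, of Angptl4 in fibroblasts (0.075 with the members among the variable genes and 0.066 without cells of other classes' markers), of Cd36 in pericytes (-0.10 with the members among the variable genes) and of Fabp5 in Cd300lg cells (-1.01 without the subcluster with adipocyte genes).

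Deviations of libraries with the same replicate number correlated at -0.06 to 0.12. Whether a number marks a shared run or litter is not given in the labels and cannot be told from these correlations. With the replicate block 4 members were called in endothelial cells, 4 in mural cells, 7 in Schwann cells, 5 in fibroblasts, 3 in macrophages and 28 over the subsets. Depth limits Fabp7, Lpl, Cd36 and Gpihbp1 in P60 Schwann cells, which hold 11 to 42 UMIs of each, and intervals between libraries cover no more than these suspensions.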

Other observations

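At P60, 386 cells carried endothelial and mural markers together and entered no class, and their Fabp4 level was high. It was 14119, 13871 and 15615 CPM in the 3 libraries, above the endothelial class in each, with Cd36 at 1060, 947 and 1152 CPM and Lpl at 183, 195 and 181 CPM. Their 3 larger clusters differed in Gpihbp1. A cluster of 115 cells led by pericyte genes such as Rgs5 and Kcnj8 had 13588, 11853 and 13900 CPM of Fabp4 but only 43.4, 57.7 and 44.2 CPM of Gpihbp1, and 102 of its 115 cells held a Fabp4 UMI. When all 386 cells were counted as mural, the mural Cd36 change was log2 2.62 (edgeR adjusted p = 3.0e-05) in place of log2 -0.42.

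Lymphatic cells had a much higher Fabp4 level at P1 than at P60. The 59 cells of P1 held 3559 UMIs, 8046 CPM when pooled, and P1 replicate 3, the only P1 library with at least 20 of them, had 9246 CPM, while the P60 libraries had 460, 845 and 557 CPM. No test was made, since the other P1 libraries had fewer than 20 lymphatic cells.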
